A study of Homo sapiens with 15 samples.

Results

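Transcripts of 10 genes that tag newly made lysosomal enzymes with mannose 6-phosphate, or sort the tagged enzymes, were followed in MIA PaCa-2, an established cell line from a human pancreatic carcinoma. The genes were taken by symbol and comprised the tagging enzymes GNPTAB, GNPTG and NAGPA, the sorting receptors M6PR, IGF2R and SORT1, and the coat adaptors GGA1, GGA2, GGA3 and AP1S1. They are 10 of 60107 genes listed, and all 10 were among the 10495 genes with enough reads to be tested. Cells were exposed for 24 h to vehicle (the Ctrl group) or to 5 µM of Lys05, BAQ12, BAQ13 or BAQ12O, with 3 libraries in each of the 5 groups. Lys05 is a bisaminoquinoline inhibitor of autophagy that collects in lysosomes. BAQ12 and BAQ13 are code names of derivatives that the study formed into nanoparticles, and BAQ12O, written 12O in the design text, is known here by its label alone. The groups shared the same unmodified cell line, and the labels do not say whether the 3 libraries of a group came from separate cultures. The p-values therefore measure only the spread between these libraries, which may be technical.

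Lysosomal hydrolases are made in the endoplasmic reticulum and pass to the Golgi apparatus, where a phosphotransferase adds N-acetylglucosamine phosphate to their mannose residues and a second enzyme uncovers the phosphate. Receptors in the trans-Golgi network bind the uncovered tag, and clathrin adaptors collect the loaded receptors into carriers bound for endosomes. The acid of the endosome releases the enzymes, and the receptors return to the Golgi apparatus for another round.

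Each library held between 1586566 and 2500551 reads assigned to genes, and 14815 to 15718 genes were detected. Values are normalised read counts, which are gene reads divided by a library factor, so they compare libraries for 1 gene and not levels between genes. The sorting genes had 11 to 228 reads in a library, against a floor of 3 reads, or 2.49 to 4.14 normalised counts. The line is labelled epithelial, but 4 of 8 epithelial markers had too few reads to test, among them EPCAM and CDH1. All 6 acinar markers had no read in any library, as did the duct marker CFTR. The summed epithelial markers lay between 1793 and 1864 with vehicle, 1455 and 1676 with Lys05, 1478 and 1674 with BAQ12, 1469 and 1494 with BAQ13, and 1470 and 1593 with BAQ12O, and their part in the results was not tested. The leukocyte markers CD3E and CSF1R had no read and the summed leukocyte list reached at most 5.72 normalised counts. In whole-culture RNA, fewer cells of a kind and less RNA in each cell cannot be told apart. The third BAQ12 library stood apart from its group, with a median absolute log2 difference of 0.38 from its 2 mates, against at most 0.25 in the other 14 libraries. In that library 6 of the 10 sorting genes lay above both other BAQ12 libraries, 3 lay below both and 1 lay between them. For the sorting genes, the BAQ12 values and calls that move without it are given both ways.

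None of the 10 sorting genes passed an adjusted p of 0.05 in any comparison. The differences nearest to the threshold were seen with BAQ13, where M6PR and IGF2R, the 2 mannose 6-phosphate receptors, were measured 1.36-fold and 1.33-fold higher than with vehicle and GNPTAB, the catalytic gene of the tagging enzyme, 0.72-fold of vehicle. The receptors and GNPTAB passed the threshold when the third BAQ12 library, which belongs to none of these groups, was left out of the shared estimate of spread. In that fit 13.7% of all genes passed in BAQ13 against vehicle, compared with 5.77% in the reported fit. Of 24 alternative fits, 3 called M6PR, 1 called IGF2R and 1 called GNPTAB in this comparison. GGA1, a clathrin adaptor, was the nearest gene with BAQ12O, at 1.35-fold of vehicle. Fold changes and their p-values came from limma, fitted to all 15 libraries on the scale log2(normalised count + 1), with Benjamini-Hochberg adjustment over every gene tested.

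**Figure D1:**
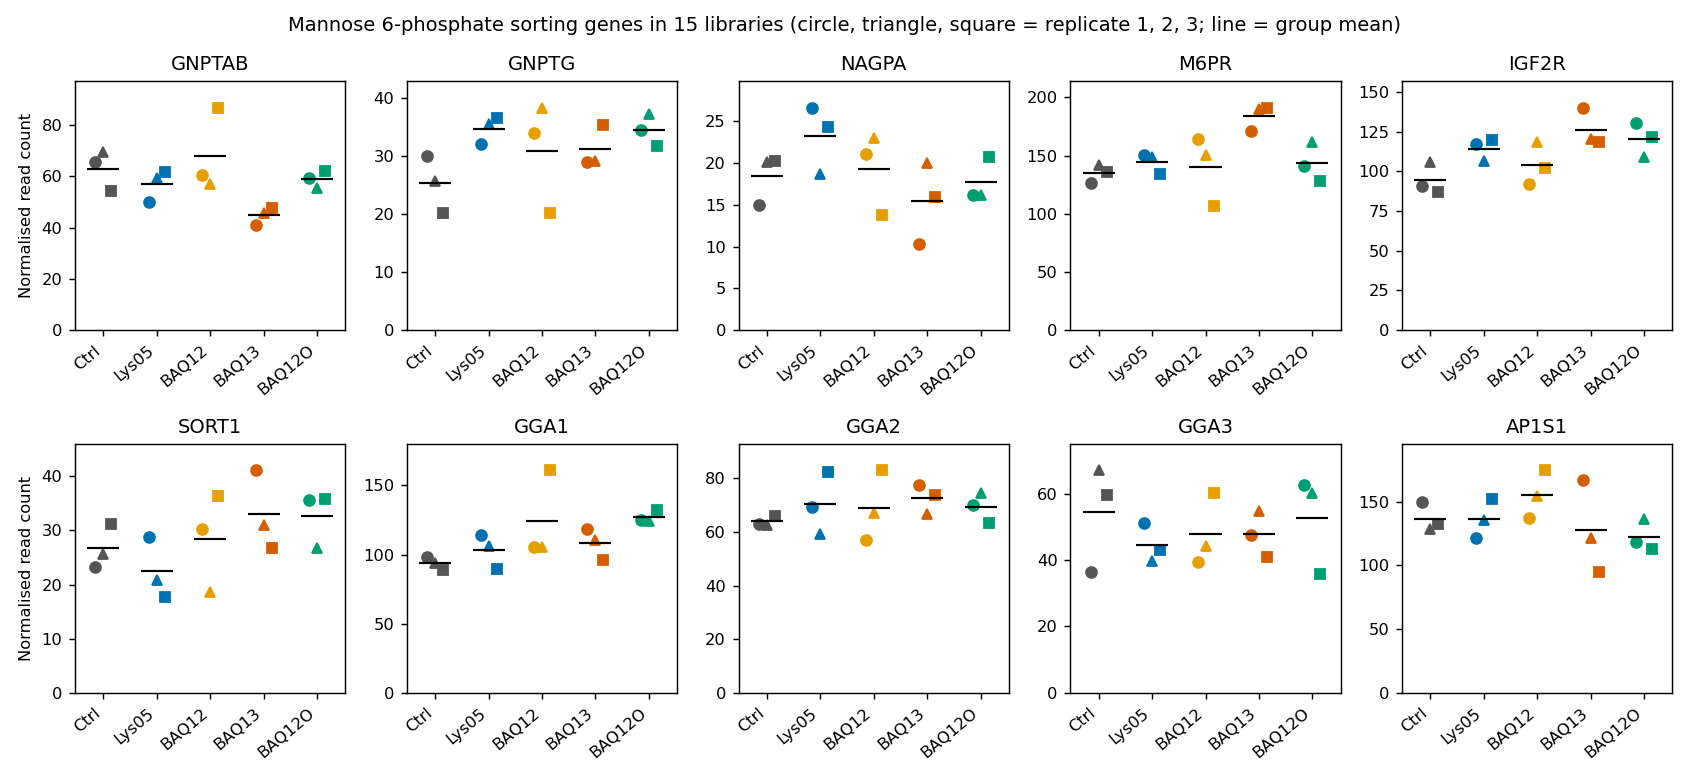
Normalised read counts (y axis, from 0) of the 10 sorting genes in each of the 15 libraries, by group (x axis); points are libraries and lines are group means. For M6PR the 3 BAQ13 libraries sit above every other library, and for GNPTAB they sit below every other library.

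GNPTAB (ENSG00000111670, chr12:101745497-101830938, minus strand of GRCh38) encodes the alpha and beta subunits of the phosphotransferase that starts the tag. Its normalised read counts were 65.6, 69.2 and 54.2 with vehicle, 50.05, 59.4 and 61.6 with Lys05, 60.5, 57.0 and 86.7 with BAQ12, 41.1, 45.6 and 47.8 with BAQ13, and 59.3, 55.3 and 62.0 with BAQ12O. All 3 BAQ13 libraries were lower than each of the other 12 libraries, and the other 4 groups overlapped. With BAQ13 the mean was 44.8 ± 3.42 (SD, n = 3) against 63.0 ± 7.86 (SD, n = 3) with vehicle. This was a log2 fold change of -0.48 ± 0.17 (SE), with a 95% interval of -0.83 to -0.13, a p of 0.010 and an adjusted p of 0.105. With Lys05, BAQ12 and BAQ12O the log2 fold changes were -0.14, 0.09 and -0.09, and that with BAQ12 was -0.09 without the third BAQ12 library.

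GNPTG (ENSG00000090581, chr16:1351923-1364113, plus strand) encodes the gamma subunit, which helps the phosphotransferase to recognise its substrates. Its transcript was measured at 29.9, 25.7 and 20.2 normalised counts with vehicle, 31.9, 35.4 and 36.4 with Lys05, 33.9, 38.3 and 20.1 with BAQ12, 28.9, 29.2 and 35.2 with BAQ13, and 34.5, 37.2 and 31.7 with BAQ12O. The Lys05 and BAQ12O libraries lay above all vehicle libraries, whereas the BAQ12 and BAQ13 libraries overlapped with them. The log2 fold change was 0.45 ± 0.22 (SE) with Lys05, with an adjusted p of 0.993, and 0.45 ± 0.22 (SE) with BAQ12O, with an adjusted p of 0.415. With BAQ12 it was 0.24, and 0.51 without the third BAQ12 library, with adjusted p-values of 0.656 and 0.416. The mean with BAQ13, 31.1, was higher than with vehicle, 25.3, while that of its partner subunit gene GNPTAB was lower, and the difference between the 2 genes was not tested. GNPTG overlaps UNKL on the opposite strand by 909 bases, and UNKL had 393 reads over all libraries.

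NAGPA (ENSG00000103174, chr16:5024844-5034141, minus strand) encodes the uncovering enzyme, which removes the N-acetylglucosamine and exposes the phosphate. It rested on 11 to 27 reads a library. Counts after normalisation were 14.9, 20.1 and 20.2 with vehicle, 26.6, 18.7 and 24.3 with Lys05, 21.1, 23.0 and 13.8 with BAQ12, 10.3, 20.1 and 15.9 with BAQ13, and 16.2, 16.2 and 20.7 with BAQ12O. Every compound group overlapped with vehicle. The log2 fold changes were 0.32 with Lys05, 0.05 with BAQ12, -0.28 with BAQ13 and -0.05 with BAQ12O, and the interval with BAQ13, -0.84 to 0.29, was the widest of the 10 genes in that comparison. Without the third BAQ12 library the value with BAQ12 was 0.26. NAGPA overlaps ALG1 on the opposite strand by 219 bases, and ALG1 had 359 reads.

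M6PR (ENSG00000003056, chr12:8940363-8949955, minus strand) encodes the small cation-dependent mannose 6-phosphate receptor. M6PR stood at normalised read counts of 126, 142 and 136 with vehicle, 150.1, 149 and 134 with Lys05, 164, 150.5 and 107 with BAQ12, 171, 189.6 and 191 with BAQ13, and 141, 162 and 128 with BAQ12O. The 3 BAQ13 libraries were higher than all 12 others, whereas Lys05, BAQ12 and BAQ12O overlapped with vehicle. With BAQ13 the mean was 184 ± 11.3 (SD, n = 3) against 135 ± 7.88 (SD, n = 3) with vehicle. On the log2 scale the difference was 0.45 ± 0.14 (SE), with a 95% interval of 0.15 to 0.74, a p of 0.0053 and an adjusted p of 0.072. The log2 fold changes with Lys05, BAQ12 and BAQ12O were 0.10, 0.04 and 0.09, and the third BAQ12 library held the lowest M6PR value of the 15. Without that library the BAQ12 mean was 157 and its log2 fold change 0.22, with an adjusted p of 0.596.

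IGF2R (ENSG00000197081, chr6:159969099-160113507, plus strand) encodes the large cation-independent receptor, which also binds insulin-like growth factor 2 and takes up tagged enzymes at the cell surface. Normalised IGF2R counts were 90.5, 106 and 87.2 with vehicle, 117, 106 and 119 with Lys05, 91.7, 118 and 102 with BAQ12, 139.97, 120.3 and 118 with BAQ13, and 130.4, 109 and 121 with BAQ12O. The Lys05, BAQ13 and BAQ12O libraries all lay above the vehicle libraries, for Lys05 by a margin of 106.2 against 106.1, and BAQ12 overlapped with vehicle. With BAQ13 the mean was 126 ± 12.0 (SD, n = 3) against 94.6 ± 10.1 (SD, n = 3) with vehicle. The estimated log2 fold change was 0.41 ± 0.13 (SE), with a 95% interval of 0.14 to 0.68, a p of 0.0048 and an adjusted p of 0.068. With BAQ12O it was 0.34, with a p of 0.015 and an adjusted p of 0.235, and with Lys05 it was 0.27, with a p of 0.047 and an adjusted p of 0.992.

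SORT1 (ENSG00000134243, chr1:109309568-109397951, minus strand) encodes sortilin, a receptor that carries some lysosomal proteins without the mannose 6-phosphate tag. Its normalised read counts were 23.2, 25.7 and 31.2 with vehicle, 28.7, 20.8 and 17.7 with Lys05, 30.3, 18.7 and 36.4 with BAQ12, 41.1, 31.0 and 26.8 with BAQ13, and 35.6, 26.7 and 35.8 with BAQ12O. All compound groups overlapped with vehicle. The log2 fold change with BAQ12 was 0.05, and -0.15 without the third BAQ12 library. With BAQ13 it was 0.28, with a 95% interval of -0.26 to 0.82, so neither the sizes measured for M6PR and IGF2R nor a value of 0 lay outside it.

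GGA1 (ENSG00000100083, chr22:37608475-37633564, plus strand) encodes a monomeric adaptor that binds the receptors' tails and clathrin. Its normalised read counts were 98.0, 93.8 and 89.0 with vehicle, 114, 106 and 89.6 with Lys05, 105.5, 105.4 and 161 with BAQ12, 119, 110.3 and 96.4 with BAQ13, and 125, 124 and 132 with BAQ12O. The BAQ12 and BAQ12O libraries lay above every vehicle library, and the Lys05 and BAQ13 libraries overlapped with vehicle. With BAQ12O the mean was 127 ± 4.57 (SD, n = 3) against 93.6 ± 4.47 (SD, n = 3) with vehicle. The log2 difference was 0.44 ± 0.15 (SE), with a 95% interval of 0.12 to 0.76, a p of 0.00999 and an adjusted p of 0.202. With BAQ12 it was 0.37, with an adjusted p of 0.353, and without the third BAQ12 library it was 0.17, with an adjusted p of 0.786. In the BAQ12O libraries mitochondrial genes took 19.0% to 20.4% of reads, against 17.4% to 18.1% with vehicle. The 3 summed endothelial markers stood at 67.6 to 75.3 normalised counts against 50.2 to 58.9. That sum is in effect CDH5 alone, with 848 reads over all libraries, where VWF had 1 read and PECAM1 had no read. The part of the mitochondrial share or of CDH5 in the GGA1 difference was not tested.

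GGA2 (ENSG00000103365, chr16:23463542-23521995, minus strand) and GGA3 (ENSG00000125447, chr17:75236599-75262363, minus strand) encode the other two adaptors of this family. GGA2 ranged from 62.5 to 66.1 normalised counts with vehicle, from 59.4 to 82.1 with Lys05, from 56.9 to 82.9 with BAQ12, from 66.5 to 77.5 with BAQ13 and from 63.4 to 74.4 with BAQ12O. Its BAQ13 libraries lay above the vehicle libraries by a margin of 66.5 against 66.1, with a log2 fold change of 0.18 and an adjusted p of 0.583. GGA3 ranged from 36.5 to 67.0 with vehicle, from 39.6 to 51.1 with Lys05, from 39.4 to 60.3 with BAQ12, from 41.1 to 54.7 with BAQ13 and from 35.8 to 62.5 with BAQ12O, and all groups overlapped. The log2 fold changes of GGA3 were -0.25, -0.16, -0.15 and -0.04 with Lys05, BAQ12, BAQ13 and BAQ12O, and that with BAQ12 was -0.33 without the third BAQ12 library. GGA2 with BAQ12 was at 0.09, and at -0.05 without that library. GGA3 overlaps MRPS7 on the opposite strand by 690 bases, MRPS7 had 2711 reads, and the strand setting of the counting is not given in the sources used here.

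AP1S1 (ENSG00000106367, chr7:101154400-101161596, plus strand) encodes a small subunit of AP-1, the heterotetrameric adaptor of trans-Golgi clathrin coats. Its normalised read counts were 149, 128 and 132 with vehicle, 121, 135 and 152 with Lys05, 138, 155 and 175 with BAQ12, 167, 121 and 94.7 with BAQ13, and 119, 136 and 113 with BAQ12O. All groups overlapped with vehicle. The BAQ13 libraries spread over the widest range, with a mean of 128 ± 36.6 (SD, n = 3), and their log2 fold change was -0.13. With BAQ12 it was 0.18, and 0.10 without the third library.

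**Figure D2:**
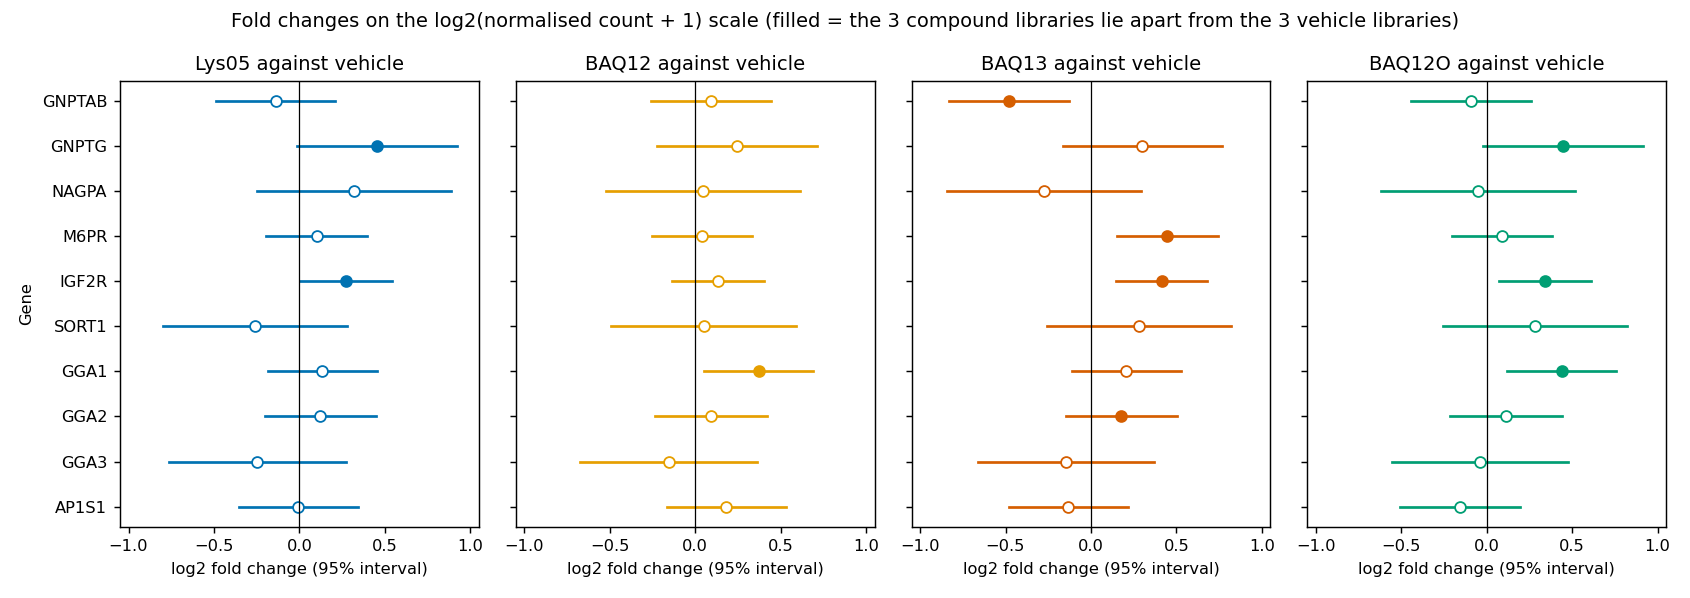
Log2 fold changes against vehicle (x axis) of the 10 sorting genes (y axis) with each compound; bars are 95% intervals and filled points mark genes whose 3 compound libraries lie apart from the 3 vehicle libraries. With BAQ13 the intervals of M6PR and IGF2R lie above 0 and that of GNPTAB lies below 0.

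Read across the route, 6 of the 10 genes were measured higher and 4 lower than vehicle with BAQ13, with a median log2 fold change of 0.19. Of these, 3 lay wholly above the vehicle libraries (M6PR, IGF2R and GGA2) and 1 wholly below (GNPTAB), where 28.9% of all genes tested did not overlap in either direction. With BAQ13, 3 of the 10 genes had an unadjusted p under 0.05, against 19.4% of all genes, and 0 passed the adjusted threshold, which 5.77% of all genes passed. With BAQ12O, 3 of the 10 genes lay apart from vehicle, all higher, against 25.8% of all genes. An unadjusted p under 0.05 was reached by 2 of them, against 12.8%, and the adjusted threshold by 0, against 1.48%. With Lys05, 2 genes lay apart from vehicle, both higher, against 15.6% of all genes, 1 had an unadjusted p under 0.05, against 4.98%, and 0 passed the adjusted threshold, against 0.238%. With BAQ12, 1 gene lay apart from vehicle, against 15.4%, 1 had an unadjusted p under 0.05, against 11.8%, and 0 passed the adjusted threshold, against 0.981%. The count tests of edgeR and DESeq2 on the recovered reads also called 0 of the 10 genes in each comparison, with 3 unadjusted p-values under 0.05 by each tool with BAQ13 and 2 by each with BAQ12O. With Lys05 the edgeR test gave 1 and the DESeq2 test 0, and with BAQ12 each gave 1.

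Leaving the third BAQ12 library out of the fit changed the call of 4 of these differences, although that library enters neither side of them. The estimates stayed at the values above, but the SE of M6PR became 0.11 in place of 0.14 and 13.7% of all genes then passed in BAQ13 against vehicle, compared with 5.77% before. With BAQ13, M6PR then had an adjusted p of 0.0042, IGF2R of 0.024 and GNPTAB of 0.031. With BAQ12O, GGA1 had an adjusted p of 0.026, and 4.99% of all genes passed in that comparison. With BAQ12, in which 2 libraries remained, 0 of the 10 genes passed and 1.31% of all genes did. M6PR with BAQ13 also passed when only the BAQ13 and vehicle libraries were fitted, with an adjusted p of 0.017 where 9.02% of all genes passed, and without the first BAQ12 library, with an adjusted p of 0.048 where 6.42% passed. GGA1 with BAQ12O passed when only those 2 groups were fitted, with an adjusted p of 0.0097, where 8.3% of all genes passed.

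**Figure D3:**
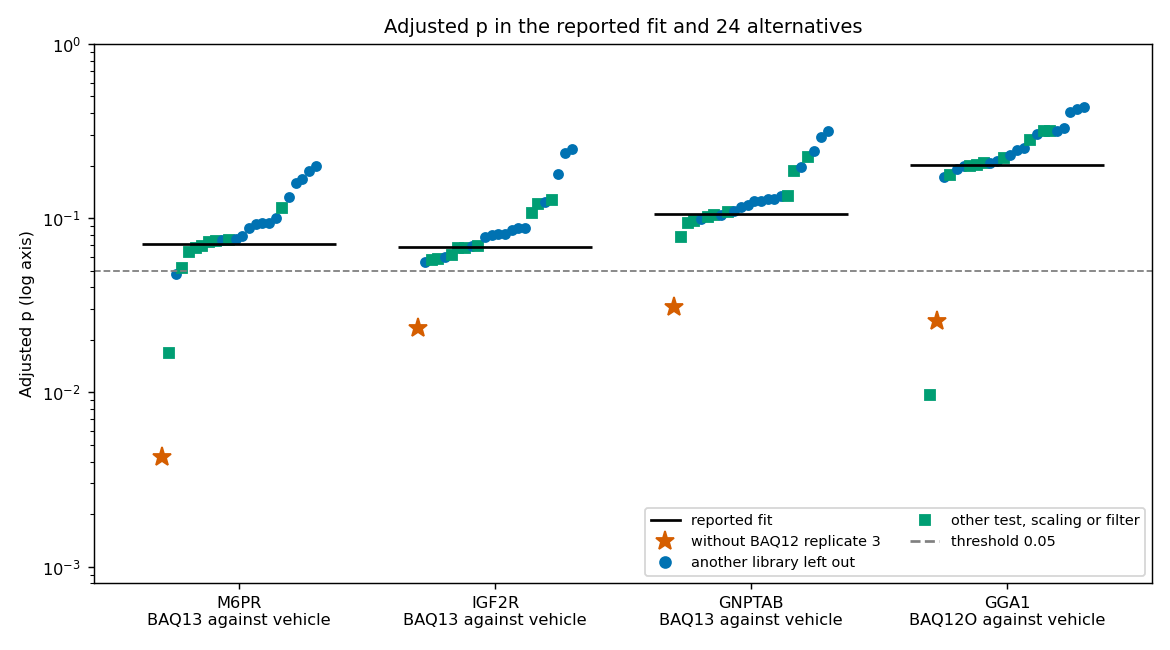
Adjusted p (y axis, log scale) of the 4 differences nearest to the threshold (x axis) in the reported fit (black line) and in 24 alternatives (points); the dashed line is 0.05. All 4 fall below the line without the third BAQ12 library, and most other alternatives lie above it.

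M6PR and GNPTAB were also set against each other within libraries, a ratio that needs no library factor. It was chosen after their values were seen and is given without a test, and since it compares reads of different genes only its change between libraries can be read. M6PR had 1.92, 2.05 and 2.51 reads per GNPTAB read with vehicle, 3.00, 2.51 and 2.18 with Lys05, 2.71, 2.64 and 1.23 with BAQ12, 4.16, 4.16 and 4 with BAQ13, and 2.38, 2.93 and 2.07 with BAQ12O. The BAQ13 libraries lay above all 12 others, and the third BAQ12 library lay below all others. This order was fixed by the values of the 2 genes and adds no separate evidence. The BAQ13 libraries were the highest for M6PR and the lowest for GNPTAB, and the third BAQ12 library was the reverse. IGF2R had 3.41, 2.64 and 2.47 reads per GNPTAB read with BAQ13, against 1.38, 1.53 and 1.61 with vehicle, and between 1.17 and 2.34 in the other 9 libraries. The ratio of M6PR to IGF2R overlapped between groups, at 1.22 to 1.62 with BAQ13 and 1.34 to 1.56 with vehicle.

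**Figure D4:**
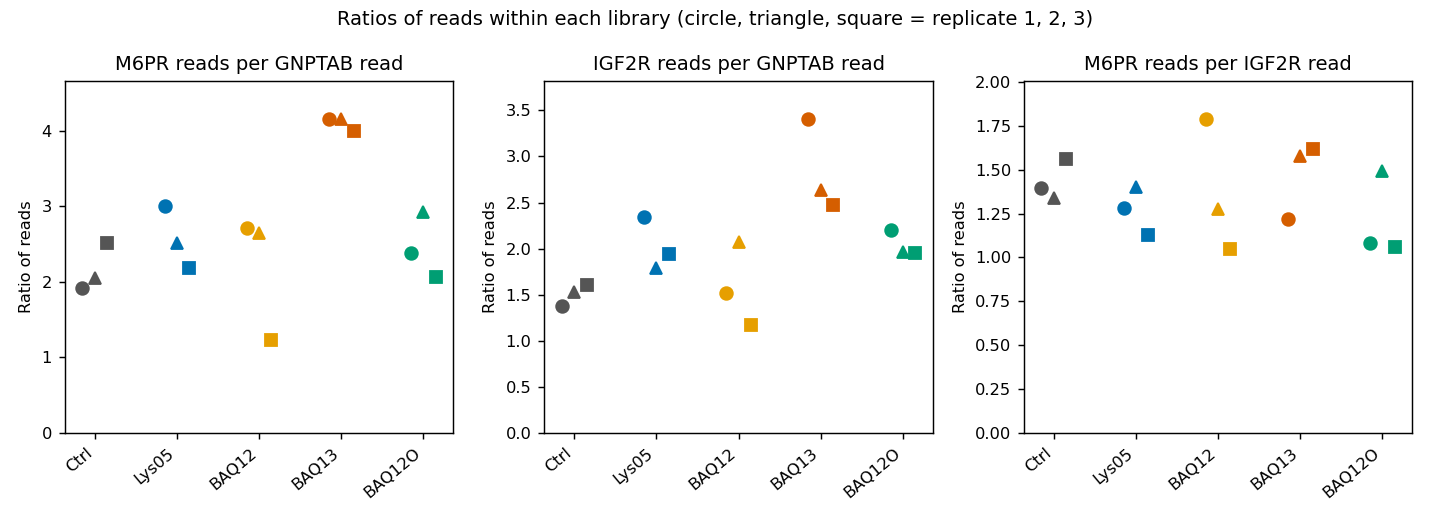
Ratios of reads within each library (y axis, from 0) for M6PR and GNPTAB, IGF2R and GNPTAB, and M6PR and IGF2R, by group (x axis); points are libraries. In the first panel the BAQ13 libraries lie at 4 to 4.16, above every other library.

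The 4 compounds had been given at the same dose and time, so the 10 genes were compared between them in 6 pairs. None of the 60 differences passed the adjusted threshold by limma, edgeR or DESeq2, and the lowest adjusted p was 0.196, or 0.179 when adjusted over genes and pairs together. An unadjusted p under 0.05 was reached by 8 of them with limma, by 8 with edgeR and by 4 with DESeq2, where 9.5% of all gene and pair combinations had one with limma. All 8 involved BAQ13. Among them, GNPTAB with BAQ13 was below BAQ12 by a log2 difference of -0.57, with a 95% interval of -0.92 to -0.22, which became -0.39, with an interval of -0.73 to -0.04, without the third BAQ12 library. It was below BAQ12O by -0.39, with an interval of -0.74 to -0.04. M6PR with BAQ13 was above BAQ12 by 0.41, above BAQ12O by 0.36 and above Lys05 by 0.35, with intervals of 0.11 to 0.70, 0.06 to 0.65 and 0.05 to 0.64. Without the third BAQ12 library the M6PR difference from BAQ12 was 0.22, with an interval of -0.02 to 0.46 and an unadjusted p of 0.069. The other 3 were IGF2R against BAQ12, at 0.28, SORT1 against Lys05, at 0.54, and NAGPA against Lys05, at -0.59. Without the third BAQ12 library IGF2R against BAQ12 had an unadjusted p of 0.060, and pairs without BAQ13 then fell under 0.05, namely GGA1 and SORT1 in BAQ12O against Lys05, at 0.015 and 0.030. In 57 of the 60 differences the 95% interval lay within 2-fold in both directions.

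The share of all genes that passed the adjusted threshold was 0.562% in BAQ13 against BAQ12, 1.39% in BAQ13 against BAQ12O, 2.66% in BAQ13 against Lys05, 0.229% in BAQ12O against BAQ12, 0.248% in BAQ12O against Lys05 and 0.162% in BAQ12 against Lys05. Without the third BAQ12 library, M6PR passed in BAQ13 against Lys05, with an adjusted p of 0.041, where 7.76% of all genes passed. When the 5 groups were ordered by their mean for each gene, BAQ13 stood first for M6PR, IGF2R, SORT1 and GGA2 and last for GNPTAB and NAGPA. Of the 40 neighbouring pairs in these orders, 2 did not overlap, namely BAQ13 and Lys05 for M6PR and for GNPTAB, and 0 had an adjusted p under 0.05.

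The DNA before the start sites was read for the letters CACGTG, the core bound by basic helix-loop-helix factors of the MiT/TFE family and by many others, and for TCACGTGA, a longer form found before many lysosomal genes. Both motifs read the same on either strand, and every TCACGTGA also counts as a CACGTG. The RefSeq windows, on GRCh38.p14, run from 250 bases before to 50 after a start and held 9 of the 10 genes, without GGA2. CACGTG was found in 7.26% of the 35116 windows and TCACGTGA in 0.980%. Counted by gene, 8.77% and 1.18% of 27305 genes held them in at least 1 window. Of the 7751 genes with a window that were tested here, as the sorting genes were, 1023 held CACGTG and 194 held TCACGTGA. Among the 9 genes, which had 13 windows, 4 held CACGTG (IGF2R, GNPTG, NAGPA and M6PR) and 3 held TCACGTGA (IGF2R, GNPTG and NAGPA). IGF2R and GNPTAB, whose 250 bases before the start held no annotated exon, are shown in full up to the start. Of GNPTG, NAGPA and M6PR only the bases around the motif are shown. IGF2R and GNPTAB lay on opposite sides of vehicle with BAQ13, but neither passed the adjusted threshold, and the part of the motif in this was not tested. CACGTG is in capitals, and each sequence runs 5′ to 3′ along the gene.
IGF2R, chr6:159968832-159969081, plus strand: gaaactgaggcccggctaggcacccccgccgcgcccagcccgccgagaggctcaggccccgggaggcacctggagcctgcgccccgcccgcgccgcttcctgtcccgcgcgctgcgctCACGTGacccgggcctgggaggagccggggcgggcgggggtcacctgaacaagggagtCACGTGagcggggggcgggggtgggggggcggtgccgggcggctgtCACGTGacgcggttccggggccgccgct
GNPTAB, chr12:101830960-101831209, minus strand: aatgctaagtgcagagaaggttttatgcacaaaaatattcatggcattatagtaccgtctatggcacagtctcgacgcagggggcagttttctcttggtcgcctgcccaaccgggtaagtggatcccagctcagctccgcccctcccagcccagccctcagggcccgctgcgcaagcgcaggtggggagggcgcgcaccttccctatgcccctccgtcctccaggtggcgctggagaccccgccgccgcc
GNPTG, chr16:1351915-1351944, plus strand: tggtCACGTGaccgtcacttCACGTGaccg
NAGPA, chr16:5033938-5033967, minus strand: tgggacttgagtCACGTGaggcgagcccac
M6PR, chr12:8949473-8949502, minus strand: agtttcccacgaCACGTGagtgtgaggggc

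IGF2R held 3 copies, which begin 132, 74 and 28 bases before the start, and each is part of TCACGTGA. GNPTG held 2 copies, 12 bases before and 5 bases into the transcript. NAGPA held 1 copy 20 bases before the start, and M6PR held 1 CACGTG 80 bases before its second listed start. These positions count from the RefSeq start of each window. Annotated exons covered 227 of the 250 bases before that start for GNPTG, 206 for NAGPA and 173 for M6PR. The NAGPA and M6PR copies lay inside the gene spans given above, and that of M6PR lay after its first listed start. No copy was found in the windows of GNPTAB, SORT1, GGA1, GGA3 and AP1S1, which says only that these letters are not in those windows. Of the sorting genes with TCACGTGA, the log2 fold changes with BAQ13 were 0.41 for IGF2R, 0.30 for GNPTG and -0.28 for NAGPA. These are values of both signs, none past the adjusted threshold. Over all 194 tested genes with TCACGTGA the median was 0.16 and 11.3% passed. Over the 7751 tested genes with a window these were -0.0021 and 5.39%. The part of the motif in these values was not tested.

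Around the 10 genes, 86 further genes of the route had been listed, of which 73 were tested. The lists were chosen with earlier results of these data known, so the counts below only describe them. With BAQ13, 10 of the 73 rose and 2 fell, against 5.77% of all genes in either direction, and their median log2 fold change was 0.10, against -0.0042 over all genes tested. With BAQ12, 2 rose and 0 fell, against 0.981% of all genes, with BAQ12O 1 rose and 0 fell, against 1.48%, and with Lys05 0 rose and 0 fell, against 0.238%. Without the third BAQ12 library 12 rose and 4 fell with BAQ13, where 13.7% of all genes passed. With BAQ12O 5 then rose and 1 fell, where 4.99% passed.

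Of the 16 tested genes of AP-1, clathrin and their regulators, CLTA, the clathrin light chain A, rose with BAQ13 from 253 ± 22.0 to 398 ± 12.7 normalised counts (SD, n = 3), a log2 fold change of 0.66 with an adjusted p of 5.3e-05. None of the other 15 passed, and the list had a median of 0.07. Its BAQ12 and BAQ12O means, 318 and 293, lay between these, with adjusted p-values of 0.070 and 0.248. Of the 14 tested genes of receptor retrieval, RAB7A, the late endosomal GTPase that recruits retromer, rose with BAQ13 from 513 ± 29.7 to 715 ± 10.8 (SD, n = 3), a log2 fold change of 0.48 with an adjusted p of 0.00045. Of the 6 tested genes of other receptors and exit factors, CLN3, a lysosomal membrane protein, rose from 24.5 ± 6.79 to 48.8 ± 10.4 (SD, n = 3), with an adjusted p of 0.028. The call of CLN3 was lost without the second vehicle library, at an adjusted p of 0.162, and without the first or the second BAQ13 library, at 0.135 and 0.070, and it was 0.051 with a replicate block. CLN3 has 2 identifiers in the files and the one with more reads was taken. None of the 4 tested genes that mature the tagging enzymes or remove the tag passed, among them MBTPS1, the protease that cleaves the GNPTAB precursor, at -0.20 with BAQ13 and an adjusted p of 0.293.

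The enzymes and activators that ride the route, 36 listed and 33 tested, had 7 members that rose and 2 that fell with BAQ13, where 5.77% of all genes passed. Some of these calls were not firm. Of those that rose, ASAH1 kept its call in 17 of 24 alternatives and CTSA in 21 of 24. PSAP lost its call in several, among them without the second vehicle library, at an adjusted p of 0.142. NEU1, the lysosomal sialidase, rose from 30.02 ± 7.17 to 94.4 ± 5.82 normalised counts (SD, n = 3), a log2 fold change of 1.65 with an adjusted p of 2.1e-05. NPC2, the soluble sterol carrier, rose from 189.7 ± 13.1 to 370.3 ± 47.1 (SD, n = 3), a log2 fold change of 0.96 with an adjusted p of 5.6e-05. CTSC, an aminopeptidase that activates serine proteases, went from 2594 ± 27.4 to 1674 ± 47.9 (SD, n = 3) and fell by 0.63 on the log2 scale, with an adjusted p of 6.4e-05, and CTSB, a cysteine protease, fell by 0.42, with an adjusted p of 0.011 that became 0.056 without the first vehicle library. NEU1 and NPC2 were also the 2 cargo genes that rose with BAQ12, by 0.94 and 0.60 on the log2 scale, with an adjusted p of 0.019 each. Both calls were lost without the second or the third vehicle library, at adjusted p-values of 0.067 to 0.146, and that of NEU1 also without the first or the second BAQ12 library, at 0.075 and 0.057. With only the BAQ12 and vehicle libraries fitted, the adjusted p was 0.414 for NEU1 and 0.265 for NPC2, where 0.295% of all genes passed. TPP1, a tripeptidyl peptidase, rose with BAQ12O by 0.52, with an adjusted p of 0.0093, and was named after its values were seen. That call was lost without the first or the second vehicle library or the second BAQ12O library, at adjusted p-values of 0.050 to 0.062. The 2 receptors' estimates with BAQ13, 0.45 and 0.41, lay below those of NEU1 and NPC2, and no test was made between genes.

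**Figure D5:**
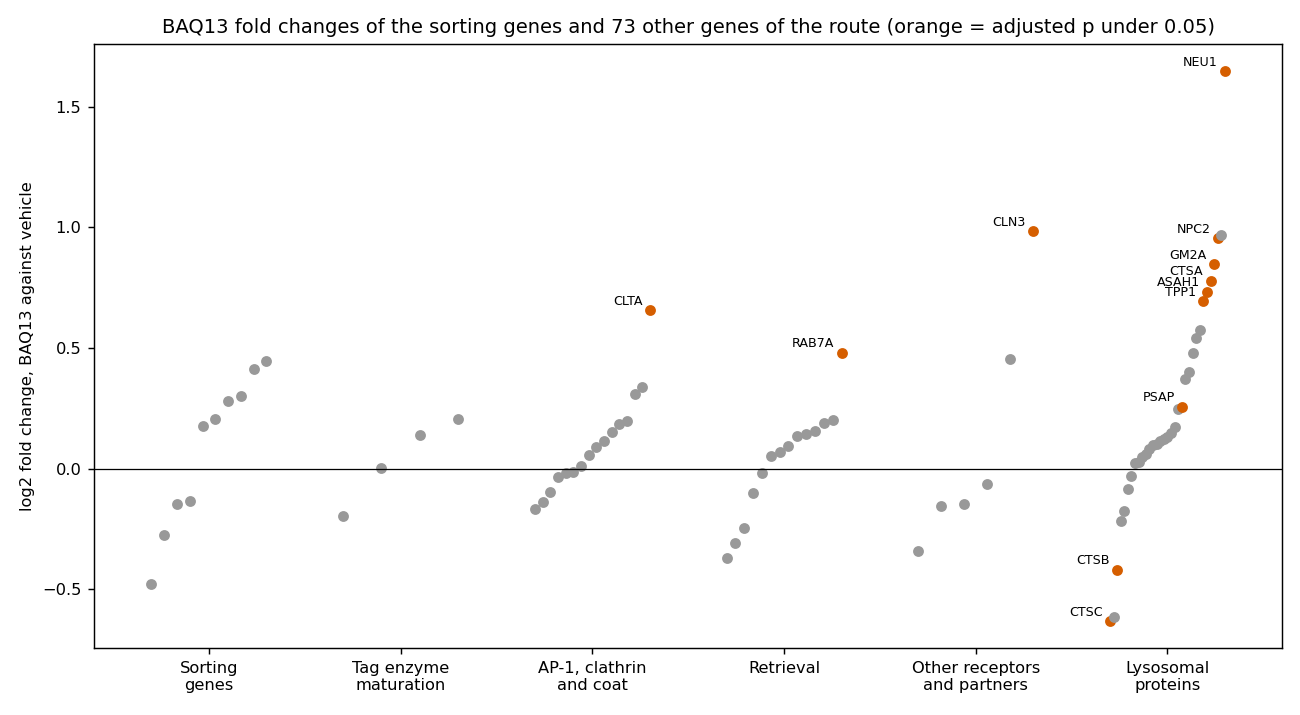
Log2 fold changes with BAQ13 against vehicle (y axis) of the 10 sorting genes and 73 other tested genes of the route, by list (x axis); each point is a gene and orange points have an adjusted p under 0.05. No sorting gene is orange and 12 of the 73 other genes are, where 5.77% of all genes tested passed. The genes and lists were chosen with earlier results of these data known.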

How the data were processed

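RNA of MIA PaCa-2 cells was sequenced in 15 libraries, grouped by their titles. The labels name a 3′ tag library kit and the study's methods a stranded paired-end kit, and which was used could not be settled. The submitters' processing notes name STAR, HTSeq, DESeq2 and the GRCh38 (hg38) build, without versions. The deposited values are a signal per gene, namely gene read counts that the authors divided by a size factor for each library. In every library 100% of values were whole multiples of 1 read (tolerance 0.01 reads), so reads were recovered. The 92 spike-in identifiers held no reads and were left out. No column lacked a sample (0 such columns).

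Values were tested as log2(value + 1) with limma 3.58.1 (R 4.3.3, empirical Bayes with a mean trend) over all 15 libraries, after edgeR's filterByExpr with a minimum count of 10 and a total of 15, and p-values were adjusted by the Benjamini-Hochberg method over 10495 genes. A gene was called at an adjusted p under 0.05. Normalised values come with a depth of 1586566 to 2500551 reads a library, which limits precision for genes of few reads. Alternatives were edgeR 4.0.16 and DESeq2 1.42.0 on recovered reads, TMM factors, pseudocounts of 0.1 and 5, other filters, only the 2 groups compared, a replicate block and each library left out. The scripts were tested on simulated data. The sorting genes and gene lists were chosen with earlier results of these data known. Every sorting gene is named, and genes of the other lists where called against vehicle, of the enzyme list the 2 with the highest and the 2 with the lowest fold change among those called with BAQ13. ASAH1, CTSA and PSAP are named besides, for calls lost under alternatives. Genes most alike in pattern were to be named for each called sorting gene, so none are. LYSET was read under TMEM251, and WASHC1 was not matched. Gene positions are from GENCODE 29 (GRCh38) and promoter windows from RefSeq (GRCh38.p14).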

Additional observations from a re-analysis of the deposited data

How the results depend on the processing

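Among the 10 sorting genes, 0 calls were made under every alternative with Lys05 and with BAQ12. With BAQ13 the count was 1 when only the 2 groups compared were fitted, where 9.02% of all genes passed, and ran from 0 to 3 when single libraries were left out, and with BAQ12O it was 1, where 8.3% passed, and ran from 0 to 1. Over the 6 pairs of compounds it ran from 0 to 1. The 3 calls with BAQ13 came without BAQ12 replicate 3, where 13.7% of all genes passed. A count of 1 came without BAQ12 replicate 1, where 6.42% passed. For the 73 other genes of the route, fitting only the 2 groups gave 0 calls with BAQ12 and 9 with BAQ12O, against 0.295% and 8.3% of all genes. Leaving out single libraries gave 0 to 2 calls with BAQ12, with 0 without Ctrl replicate 2 or 3 and 1 without BAQ12 replicate 1 or 2, and 0 to 6 with BAQ12O, with 0 without Ctrl replicate 1 or 2 or BAQ12O replicate 2, 2 without BAQ12O replicate 1 and 6 without BAQ12 replicate 3, where 4.99% of all genes passed. With BAQ13 it gave 8 to 16, against 12. The share of all genes that passed in these fits moved too. It ran from 0.534% to 1.31% with BAQ12, from 0.715% to 4.99% with BAQ12O and from 3.05% to 13.7% with BAQ13. The highest share of each came without BAQ12 replicate 3. Where an arm had 2 libraries the shared spread was used. The cause of these shifts beyond the number of libraries was not tested.

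Replicate numbers did not pair the libraries: deviations of same-numbered libraries correlated from -0.49 to 0.20, and 1 library of 15 correlated best with its own number. The fit with a replicate block called 0 sorting genes in each comparison, and 10 other genes of the route with BAQ13, without CLN3 and PSAP. In that fit 4.88% of all genes passed in BAQ13 against vehicle. Of 2400 fold changes of sorting genes under alternatives, 76 changed sign, all uncalled, and 8 passed the threshold. Over 24 alternatives the adjusted p with BAQ13 ran from 0.0042 to 0.200 for M6PR, 0.024 to 0.250 for IGF2R and 0.031 to 0.316 for GNPTAB, and with BAQ12O from 0.0097 to 0.436 for GGA1. TMM factors moved the median of all genes by at most 0.0089 (log2). NAGPA, SORT1 and GNPTG had the fewest reads of the sorting genes, 287, 432 and 481 over all libraries. The part of depth in their spread was not tested.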
